A study of Penicillium oxalicum with 9 samples.

Results

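POX01356 and POX09352 are the starch enzyme genes of Penicillium oxalicum followed here, 2 of the 9834 gene IDs that each library lists. They were chosen by ID: work on the P. oxalicum strain HP7-1 gives POX01356 as the gene of the raw-starch-digesting glucoamylase PoxGA15A and POX09352 as that of the alpha-amylase Amy13A, and the files themselves hold no gene names. RNA of mycelium collected after 24 h of culture at 28 °C was sequenced in 9 libraries, 3 per strain, named F, S and T. MuPOX01907 is a mutant of the gene POX01907 and MuPOX08340 a mutant of the gene POX08340, both named in the series as candidate regulators of amylase genes. The control, Ku70, is itself a mutant, named after Ku70, a protein that binds DNA breaks for end joining, and whether both other mutants carry that change too is not stated in the labels. Titles give the carbon source as 1% starch for MuPOX01907 and MuPOX08340 and as 1% Avicel, a microcrystalline cellulose, for Ku70, whereas the growth protocol of every library names Avicel. In each comparison with Ku70, the mutated gene and the stated carbon source therefore cannot be told apart. The labels do not say whether a strain is 1 transformant or whether its libraries come from separate cultures, so p-values measure the spread between these libraries, which may be technical.

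Starch is a glucose polymer that filamentous fungi digest outside the cell. Alpha-amylase cuts alpha-1,4 bonds inside the chains and yields shorter oligosaccharides, whereas glucoamylase releases glucose from the non-reducing chain ends, and a raw-starch-digesting glucoamylase also acts on starch granules that have not been gelatinised. In filamentous fungi the transcription of such genes commonly depends on the carbon source, with starch and maltose as known inducers in Aspergillus.

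Expected counts, the estimated reads per gene, totalled 14412296 to 14802260 per library. FPKM, a fragment count corrected for a gene's length and the library's depth, was used for levels and allows both genes to be compared per length. In mycelium sequenced in bulk, fewer cells that express a gene and less RNA per cell cannot be told apart. Within a strain, the correlation of log2(FPKM + 1) across genes was 0.978 to 0.995, except for the pairs with Ku70 F, where it was 0.909 and 0.918. Ku70 F also stood apart in secreted enzymes that digest other polysaccharides: the cellulase ID POX05587 had 2917 FPKM there and 0.50 to 1.66 FPKM in the other 8 libraries. The transcripts of the targeted genes were almost absent from their own mutants, with 1, 1 and 3 reads of POX01907 in MuPOX01907 and 0 reads of POX08340 in each MuPOX08340 library.

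The glucoamylase transcript was low in MuPOX08340 and high in both other strains. POX01356 measured 228, 206 and 194 FPKM in MuPOX01907 F, S and T, 23.8, 16.3 and 15.4 FPKM in MuPOX08340, and 200, 404 and 121 FPKM in Ku70. The MuPOX01907 values lay inside the Ku70 range, and every MuPOX08340 library lay below every library of the other strains. FPKM lower in MuPOX08340 without overlap were found in 16% of the 8623 genes tested against Ku70 and in 16.8% against MuPOX01907. Among the 9834 IDs of a library, ordered by FPKM, the gene stood between places 706 and 814 in MuPOX01907, between 4667 and 5666 in MuPOX08340 and between 418 and 1414 in Ku70. In MuPOX01907 it thus exceeded 91.7% to 92.8% of all IDs, and in MuPOX08340 42.4% to 52.5% of them.

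The alpha-amylase transcript was low in both mutants. POX09352 measured 7.21, 6.81 and 3.98 FPKM in MuPOX01907 F, S and T, 4.08, 3.95 and 4.26 FPKM in MuPOX08340, and 34.9, 46.2 and 23.3 FPKM in Ku70. All 6 mutant libraries lay below all Ku70 libraries, and in FPKM the mutants overlapped each other through MuPOX01907 T. Such FPKM below Ku70 were common, in 42.5% of the 8623 genes tested for MuPOX01907 and in 16% for MuPOX08340. The gene stood between places 6423 and 7177 in MuPOX01907, between 7498 and 7581 in MuPOX08340 and between 2990 and 4773 in Ku70. Its lowest count was 108 reads in MuPOX08340 S, or 7.49 CPM, scaled here to the library total alone (95% Wilson interval 6.21 to 9.05, counting error only), so every value of this gene rests on at least 108 reads.

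**Figure D1:**
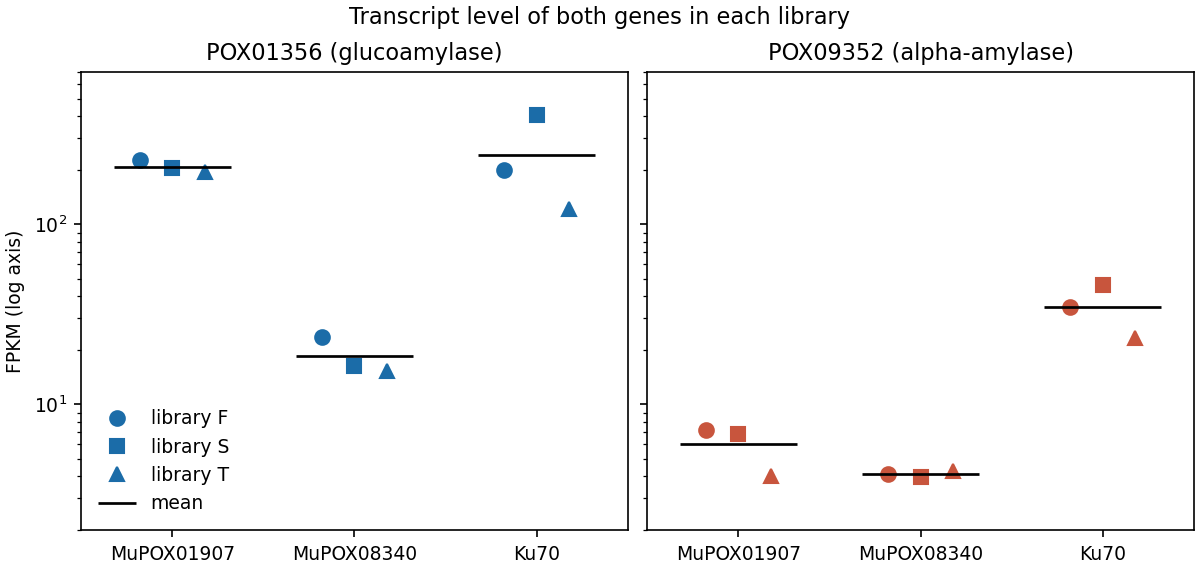
FPKM (log axis) of POX01356 on the left and POX09352 on the right, with 1 point per library (circle F, square S, triangle T) and a line at the mean of each strain. The glucoamylase is low in MuPOX08340 alone (15.4 to 23.8 FPKM), whereas the alpha-amylase is low in both mutants (3.95 to 7.21 FPKM) beside 23.3 to 46.2 FPKM in Ku70.

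In MuPOX01907 against Ku70, the alpha-amylase gene fell and the glucoamylase gene did not pass the test. POX09352 averaged 6.00 ± 1.76 FPKM in MuPOX01907 and 34.8 ± 11.5 FPKM in Ku70 (SD, n = 3 each), 4.65-fold lower in MuPOX01907 by edgeR's quasi-likelihood test on TMM-scaled counts (log2 -2.22, SE 0.303, 95% interval -2.91 to -1.53, adjusted p = 0.000778). POX01356 averaged 210 ± 17.0 FPKM in MuPOX01907 and 242 ± 146 FPKM in Ku70 (SD, n = 3 each), with a log2 fold change of 0.11 (SE 0.389, edgeR adjusted p = 0.836). The 95% interval of that change, -0.77 to 1.00, takes in a fall to 0.585-fold and a rise to 1.99-fold. Its sign depended on the scaling and on single libraries: it was -0.20 with scaling to library totals alone, -0.22 without Ku70 T, -0.0012 without Ku70 F and 0.66 without Ku70 S, and the gene was called in none of these fits. POX09352 was at -2.20 with Ku70 F left out and stayed called.

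A call required an adjusted p below 0.05 together with a log2 fold change of at least 1 in size. By that rule 1 of the 2 genes was called lower in MuPOX01907 than in Ku70, beside 12.9% of the 8623 genes tested. The background of this comparison is broad: 22.4% of the genes were called, 822 of them higher (9.53%) and 1110 lower. With scaling to library totals alone the split was 485 higher and 1755 lower, and the median over all genes was then -0.35 on the log2 scale, against -0.03 with TMM. FPKM that did not overlap and were lower in MuPOX01907 were found in 42.5% of the genes. The change of POX09352 lay in the lower tail, with 457 of the 8623 genes (5.3%) at a lower log2 fold change.

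Both starch enzyme genes fell in MuPOX08340 against Ku70. POX01356 averaged 18.5 ± 4.59 FPKM in MuPOX08340 and 242 ± 146 FPKM in Ku70 (SD, n = 3 each), a 13.4-fold lower level by edgeR (log2 -3.74, SE 0.435, 95% interval -4.73 to -2.75, adjusted p = 0.00145). POX09352 averaged 4.10 ± 0.156 FPKM in MuPOX08340 and 34.8 ± 11.5 FPKM in Ku70 (SD, n = 3 each), an 8.65-fold lower level (log2 -3.11, SE 0.315, 95% interval -3.83 to -2.40, edgeR adjusted p = 0.00069). Both groups of libraries were apart for both genes, as was found for 16% of the 8623 genes with FPKM lower in MuPOX08340. Leaving out Ku70 S, the library with the highest level of both genes, gave a 9.04-fold lower level of POX01356 and a 7.37-fold lower level of POX09352, and both stayed called. Without Ku70 F the log2 fold changes were -3.85 for POX01356 and -3.10 for POX09352, both called.

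In this comparison 2 of the 2 genes were called lower, beside 5.14% of all genes tested (7.92% were called in either direction and 2.78% higher). A total of 102 of the 8623 genes had a lower log2 fold change than POX01356, and 140 had a lower one than POX09352. The number of genes called in either direction, 683, depended on single libraries, with 281 without MuPOX08340 S and 314 without MuPOX08340 T, but both starch enzyme genes were called in each of these fits. The comparisons of MuPOX01907 and of MuPOX08340 with Ku70 share the 3 Ku70 libraries.

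Between MuPOX01907 and MuPOX08340, whose titles state the same starch medium, the glucoamylase gene differed and the alpha-amylase gene was not called. By edgeR, the POX01356 level in MuPOX01907 exceeded that in MuPOX08340 14.5-fold (log2 3.85, SE 0.437, 95% interval 2.86 to 4.85, adjusted p = 0.000283), at 210 ± 17.0 FPKM in MuPOX01907 and 18.5 ± 4.59 FPKM in MuPOX08340 (SD, n = 3 each). All 3 MuPOX01907 libraries lay above all MuPOX08340 libraries, which held for 16.8% of the genes tested in that direction. The call of 1 of the 2 genes stood beside 20.3% of genes called, 10.4% higher and 9.86% lower (901 and 850 genes, against 590 and 1445 with scaling to library totals alone), and 8539 of the 8623 genes had a lower log2 fold change.

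POX09352 passed the limit on the adjusted p between the mutants but not the one on the fold change. Its log2 fold change was 0.90 (SE 0.300, 95% interval 0.21 to 1.58, edgeR adjusted p = 0.045), under the minimum of 1. In TMM-scaled CPM (counts scaled to library size), its MuPOX01907 values of 16.1, 14.9 and 8.83 lay above its MuPOX08340 values of 7.02, 6.86 and 7.52, whereas in FPKM both strains overlapped. Without MuPOX01907 T, the lowest library of that strain, the gene was called higher in MuPOX01907 (log2 1.12, edgeR adjusted p = 0.0235), and scaling to library totals alone gave 0.55 with an adjusted p = 0.146. Over all 20 alternatives its adjusted p ran from 0.0124 to 0.223.

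**Figure D2:**
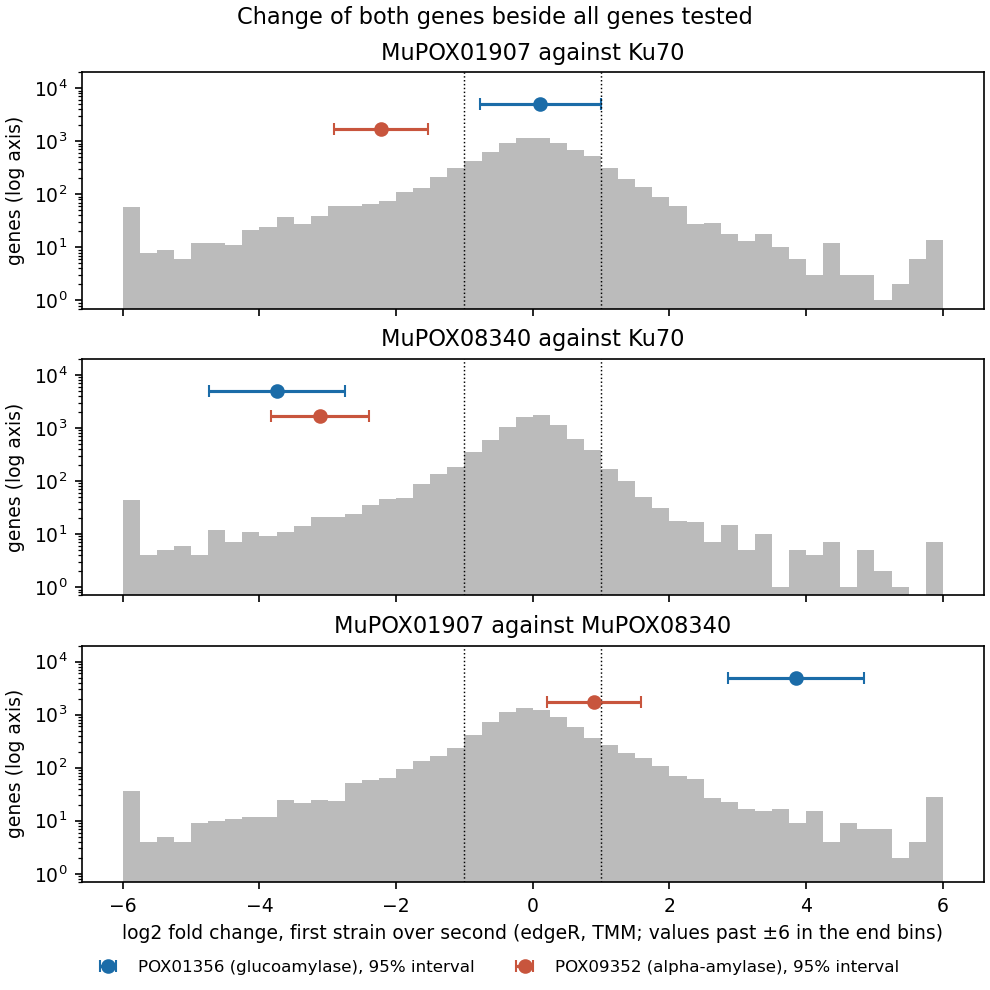
Log2 fold changes (edgeR, TMM scaling) of all 8623 genes tested as grey histograms (counts on a log axis) for each comparison, with both genes above them as points with 95% intervals and dotted lines at -1 and 1. POX09352 lies at -2.22 and POX01356 at 0.11 in MuPOX01907 against Ku70, both lie in the left tail in MuPOX08340 against Ku70 (-3.11 and -3.74), and POX01356 lies far to the right (3.85) between the mutants.

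Glucoamylase transcript outweighed alpha-amylase transcript most in MuPOX01907. The ratio of POX01356 to POX09352 in FPKM was 31.6, 30.3 and 48.9 in MuPOX01907 F, S and T, 5.82, 4.12 and 3.61 in MuPOX08340, and 5.73, 8.74 and 5.22 in Ku70. Each MuPOX01907 library thus held more glucoamylase transcript per alpha-amylase transcript than any other library, and the ranges of MuPOX08340 and Ku70 overlapped. Geometric means were 36.0 in MuPOX01907, 4.43 in MuPOX08340 and 6.39 in Ku70. As a ratio within 1 library, this measure does not depend on the scaling between libraries.

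Across the 3 strains an exact permutation test of the F statistic on the log2 ratio gave p = 0.0107 over 1680 arrangements, the smallest possible being 0.00357. With the libraries permuted within the replicate letters, the exact permutation p was 0.0556, above the threshold of 0.05. Correlations between the libraries did not settle whether these letters mark pairs. Strain by strain, MuPOX01907 exceeded Ku70 by 2.50 on the log2 scale (5.64-fold) and MuPOX08340 by 3.03 (8.14-fold), each with p = 0.1 in a two-sided exact permutation test, the smallest that 3 against 3 libraries allow (0.15 after Benjamini-Hochberg adjustment over 3 comparisons). MuPOX08340 differed from Ku70 by -0.53 (p = 0.3, adjusted 0.3, the same exact permutation test), beside SDs of 0.355 in MuPOX08340 and 0.396 in Ku70 (n = 3 each).

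**Figure D3:**
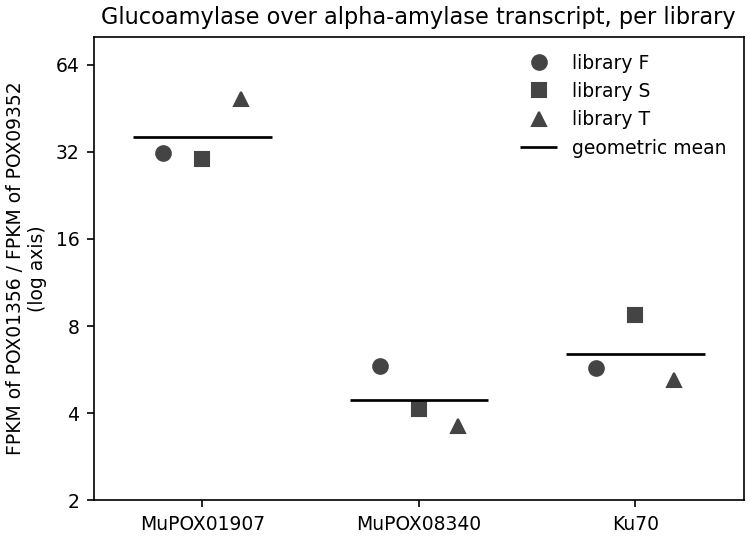
Ratio of the FPKM of POX01356 to that of POX09352 in each library (log axis; circle F, square S, triangle T), with a line at the geometric mean of each strain. MuPOX01907 lies between 30.3 and 48.9, above MuPOX08340 (3.61 to 5.82) and Ku70 (5.22 to 8.74), which overlap.

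Ordered by mean FPKM, POX01356 in Ku70 and in MuPOX01907 came first, and these neighbours did not differ beyond their spread. POX09352 in Ku70 (34.8 ± 11.5 FPKM) and POX01356 in MuPOX08340 (18.5 ± 4.59 FPKM) followed as neighbours, the ranges of which, 23.3 to 46.2 and 15.4 to 23.8 FPKM, met at their ends. POX09352 in MuPOX01907 and in MuPOX08340 came last. POX01356 took 0.0408% ± 0.00335 of all counts in MuPOX01907, 0.00360% ± 0.000891 in MuPOX08340 and 0.0470% ± 0.0284 in Ku70 (SD, n = 3 each).

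The glucoamylase gene varied more between the libraries of Ku70 than between those of either mutant. Its highest library exceeded its lowest 1.17-fold in MuPOX01907, 1.54-fold in MuPOX08340 and 3.33-fold in Ku70, beside medians of 1.195, 1.25 and 1.48 over the genes averaging at least 10 FPKM in these strains. Of those genes, 43.7% varied less in MuPOX01907, 83.3% in MuPOX08340 and 91.6% in Ku70. For POX09352 the ratios were 1.81 in MuPOX01907, 1.08 in MuPOX08340 and 1.99 in Ku70, and 94.3%, 9.55% and 77.1% of the genes varied less. Both genes were highest in Ku70 S, intermediate in Ku70 F and lowest in Ku70 T. The large values of Ku70 F for cellulase and xylanase IDs were thus not shared by either starch enzyme gene, which in Ku70 F lay between the values of the other Ku70 libraries.

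Of the regulator genes, POX03446, the gene of the starch enzyme regulator PoxRsrA in strain HP7-1, was not called in any comparison. It measured 14.2, 12.5 and 12.8 FPKM in MuPOX01907, 15.5, 13.7 and 18.6 FPKM in MuPOX08340, and 30.0, 22.0 and 24.5 FPKM in Ku70. All mutant libraries lay below all Ku70 libraries. FPKM lower than in Ku70 without overlap were found in 42.5% of the genes tested for MuPOX01907 and in 16% for MuPOX08340. The log2 fold changes of POX03446, -0.63 in MuPOX01907 (edgeR adjusted p = 0.0187) and -0.70 in MuPOX08340 (adjusted p = 0.0312), were under the minimum of 1.

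POX08340 itself fell in MuPOX01907. Its transcript measured 8.26, 8.01 and 7.28 FPKM in MuPOX01907 and 30.6, 35.7 and 30.6 FPKM in Ku70, a log2 fold change of -1.72 (SE 0.146, edgeR adjusted p = 0.000261). POX01907 measured 24.2, 20.4 and 19.9 FPKM in MuPOX08340 and 22.9, 17.1 and 16.5 FPKM in Ku70 and was not called there (log2 0.17, edgeR adjusted p = 0.592).

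Of the genes for other secreted polysaccharide enzymes, 4 cellulase and 3 xylanase IDs known from the same strain were followed. In MuPOX01907 against Ku70, edgeR called 5 of the 7 lower, all but POX07535 and POX06783, beside 12.9% of all genes. In MuPOX08340 against Ku70 it called 1 lower, POX04786, beside 5.14% of all genes, and between the mutants 0 of the 7. Ku70 F held 87.5 to 6193 FPKM of these IDs, and the other 8 libraries 0.28 to 70.1 FPKM. The cellulase ID POX04786, for example, measured 1.32 to 3.75 FPKM in MuPOX01907, 0.78 to 1.33 FPKM in MuPOX08340, and 4809, 3.24 and 1.64 FPKM in Ku70 F, S and T. With Ku70 F left out, a fit of these IDs chosen after seeing the data, 0 of the 7 were called lower in either mutant than in Ku70. Of all 8681 genes then tested, 1060 were called lower in MuPOX01907 and 497 in MuPOX08340. Relative to Ku70, the xylanase ID POX06783 was called higher in MuPOX01907 (log2 1.997, edgeR adjusted p = 4.62e-05), as were 870 of all genes. POX04786, POX07535, POX00063 and POX06783 were called higher in MuPOX01907 than in MuPOX08340, as were 1009 of all genes. POX04786 and POX00063 were near the floor in both mutants (0.28 to 3.75 FPKM). The log2 fold change of POX04786 between the mutants was 1.47 with and without Ku70 F.

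The IDs whose profile was most like that of the glucoamylase gene shared its low level in MuPOX08340. Likeness was the Pearson correlation of log2(CPM + 1) over the same 9 libraries among 6608 IDs averaging at least 10 FPKM, given as a description. The highest were POX03972 (0.994), POX02311 (0.993), POX06310 (0.989), POX02412 (0.986) and POX04033 (0.985). The files name no product for any of them. Each of them was called lower in MuPOX08340 than in Ku70 and higher in MuPOX01907 than in MuPOX08340, and none was called in MuPOX01907 against Ku70. As the IDs were picked by likeness over these libraries, their calls are a description.

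Of the 5, POX02412 had the highest mean level in MuPOX01907, MuPOX08340 and Ku70 alike. It measured 169, 159 and 129 FPKM in MuPOX01907, 53.8, 44.2 and 44.1 FPKM in MuPOX08340, and 146, 277 and 101 FPKM in Ku70. All 5 IDs, like POX01356, were highest in Ku70 S and lowest in Ku70 T among the Ku70 libraries, an order that the pick by likeness favours. POX09352 had the same order. The fall of POX02412 in MuPOX08340 against Ku70 was smaller than that of POX01356, with a log2 fold change of -1.91 (edgeR adjusted p = 0.0103). Over the 5 IDs, mean FPKM was lower in MuPOX08340 than in Ku70 by factors of 2.50 to 3.68.

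For the alpha-amylase gene the most similar IDs had lower FPKM in both mutants than in Ku70, a profile that the pick by likeness favours. They were POX08341 (0.977), POX02547 (0.973), POX02102 (0.972), POX05743 (0.968) and POX01990 (0.967), over the same libraries and IDs. POX08341, whose number follows that of the mutated POX08340, measured 32.2, 24.4 and 23.6 FPKM in MuPOX01907, 24.1, 22.5 and 16.8 FPKM in MuPOX08340, and 172, 177 and 142 FPKM in Ku70. It was called lower in MuPOX01907 (log2 -2.29, edgeR adjusted p = 7.67e-05) and in MuPOX08340 (log2 -2.98, adjusted p = 9.51e-05) than in Ku70, with changes close in size to those of POX09352. Of the other four, POX02547 was called lower in both mutants and POX05743 in neither. POX02102 and POX01990 were called lower in MuPOX08340 and not in MuPOX01907, and were not called between the mutants. Among all genes tested, 12.9% were called lower in MuPOX01907 and 5.14% in MuPOX08340 than in Ku70. As these IDs were also picked by likeness over these libraries, their calls are a description.

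Neither starch enzyme gene came high in the other's list. In likeness to POX01356, POX09352 stood at place 713 of 6608, and POX01356 stood at place 639 in likeness to POX09352.

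**Figure D4:**
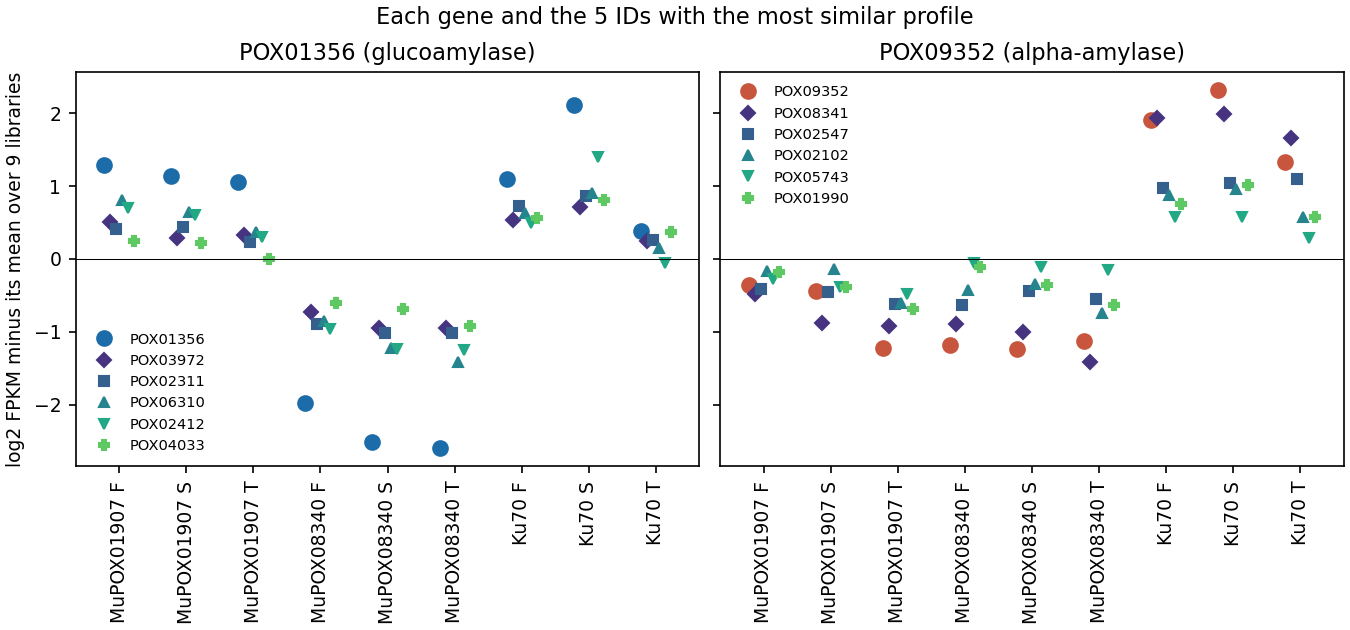
Log2 FPKM of each gene and of its 5 most similar IDs, each minus its own mean over the 9 libraries, by library. The IDs like POX01356 are lowest in the MuPOX08340 libraries, whereas those like POX09352 lie lower in all 6 mutant libraries than in Ku70.

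IDs numbered next to the starch enzyme genes did not move with them as a block. The sources used here do not say if following numbers lie side by side on a chromosome. Of the 10 IDs within 5 numbers of POX01356, 7 were tested, of which 1 was called higher and 0 lower in MuPOX08340 against Ku70, where POX01356 fell, beside 2.78% and 5.14% of all genes. In MuPOX01907 against Ku70, 0 were called higher and 2 lower, POX01358 (log2 -2.54) and POX01359 (log2 -1.40), beside 9.53% and 12.9% of all genes. Without Ku70 F, POX01358 was also called lower in MuPOX08340 (log2 -1.15, edgeR adjusted p = 0.0225). The one that rose was POX01353 (log2 1.02, edgeR adjusted p = 0.00906), at 23.0 ± 3.40 FPKM in MuPOX08340 and 11.1 ± 1.34 FPKM in Ku70 (SD, n = 3 each). POX01357, the next number, averaged 30.8 ± 2.71 FPKM in MuPOX08340 and 28.4 ± 4.85 FPKM in Ku70 and was not called.

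Of the 10 numbering neighbours of POX09352 7 were tested, and 4 were called lower in MuPOX01907 and 2 in MuPOX08340 than in Ku70, beside 12.9% and 5.14% of all genes. The difference from the neighbours of POX01356 was not tested. POX09353 and POX09357 were called lower in both mutants, like POX09352, although without Ku70 F POX09353 was not called in MuPOX01907 (log2 -0.97). POX09357 averaged 6.56 ± 1.09 FPKM in MuPOX01907, 11.3 ± 1.31 FPKM in MuPOX08340 and 60.5 ± 38.7 FPKM in Ku70 (SD, n = 3 each). POX09353 was weakly expressed, at 0.887, 0.823 and 3.92 FPKM in MuPOX01907, MuPOX08340 and Ku70. Between them POX09354 and POX09355, at 243 to 712 FPKM on average, were called in no comparison, so the lower IDs did not form an unbroken run with POX09352.

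**Figure D5:**
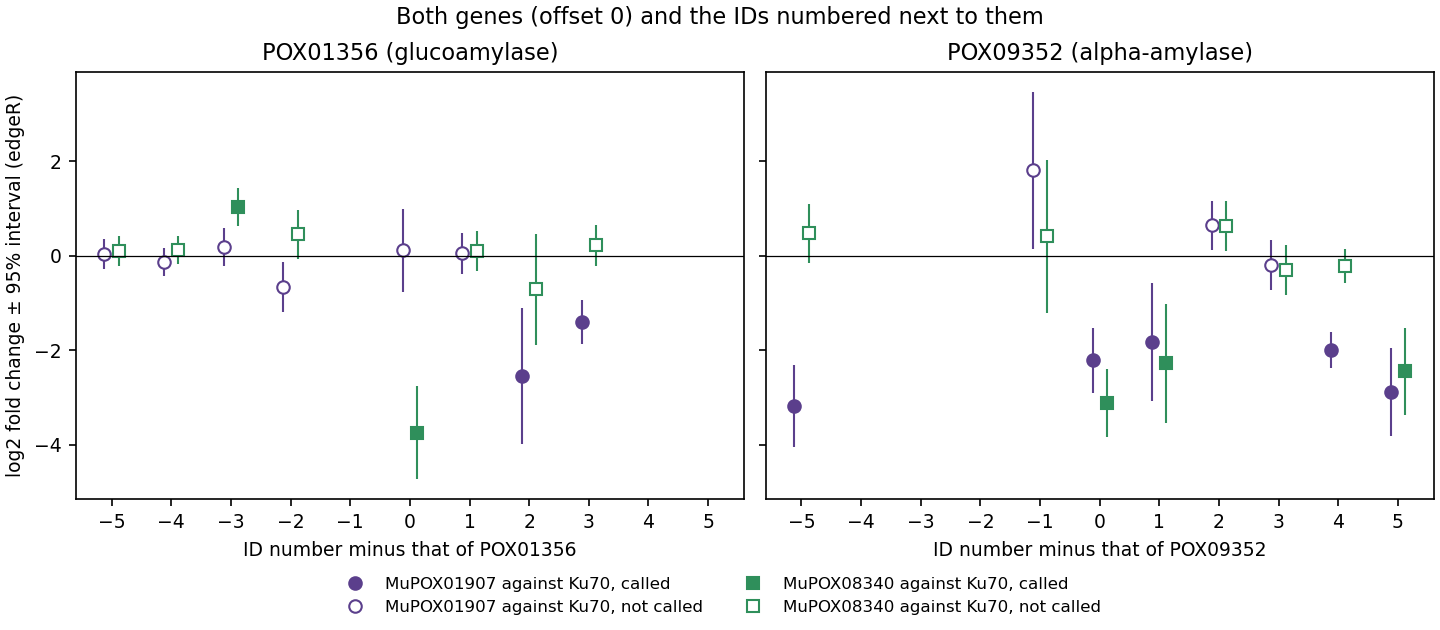
Log2 fold change with 95% interval (edgeR) of each starch enzyme gene (offset 0) and of the tested IDs within 5 numbers of it, for MuPOX01907 (circles) and MuPOX08340 (squares) against Ku70, filled where called. In the left panel POX01356 (-3.74) is called lower in MuPOX08340 and no tested neighbour is (POX01358 is without Ku70 F), and around POX09352 the IDs at offsets 1 and 5 are called lower in both mutants (the one at offset 1 in MuPOX01907 only with Ku70 F).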

How the data were processed

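Libraries of Penicillium oxalicum mycelium (RNA extracted with TRIzol, sequenced on an Illumina HiSeq instrument, per the labels' protocols) were grouped by the strain in their titles. The deposited expected counts and FPKM values are named so per the file headers. The submitters' processing notes list RSEM 1.2.12, Bowtie2 2.1.0, DESeq2 and BWA 0.7.10-r789 without their roles. Not given in the sources used here are the genome build, the annotation, the strandedness and the counting of reads that match several similar genes. None of the 9834 IDs matched a RefSeq gene table (0 matches), so no coordinates are given.

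Expected counts, rounded to whole numbers (97.1% to 97.8% were whole within 1e-06), were tested with edgeR 4.0.16 (R 4.3.3): TMM scaling, filterByExpr (8623 genes kept, 1211 removed; both starch enzyme genes kept), 1 quasi-likelihood fit over 9 libraries and Benjamini-Hochberg adjustment over all genes tested. Standard errors were taken from the F statistic. TMM was preferred to FPKM as deposited because unscaled FPKM shifted the median of all genes in MuPOX01907. The test was checked on simulated data with the same gene means in all libraries apart from set changes. That check covers neither an outlying library such as Ku70 F nor a shift of the median as in MuPOX01907. Alternatives were DESeq2 1.42.0, limma 3.58.1 on log2(FPKM + 1) and log2(FPKM + 0.1), other scalings and filters, each library left out and a replicate block. For the letters F, S and T, correlations of deviations from the group means were 0.628, 0.160 and 0.514 between the mutants, all over a limit of 0.1. With Ku70 they were -0.0645, -0.0709 and 0.1001 for MuPOX01907, and 0.0484, -0.1995 and 0.2717 for MuPOX08340. Of the 18 pairs with different letters, 7 also passed 0.1, so this limit did not settle whether the letters mark pairs. Wilson intervals cover counting error only, as reads without molecular identifiers are not independent molecules. No libraries of a strain agreed within sampling noise (lowest chi-square per degree of freedom 17.5). The named genes were both starch enzyme genes, the listed regulator, cellulase and xylanase IDs, the 5 IDs most like each starch enzyme gene and the IDs within 5 numbers of it. These genes and lists were chosen with earlier results of these data known.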

Additional observations from a re-analysis of the deposited data

Results flagged for a closer look

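The glucoamylase gene POX01356 changed differently in both mutants relative to Ku70. The difference between these changes, tested directly as MuPOX01907 against MuPOX08340, was 3.85 on the log2 scale (SE 0.437, edgeR adjusted p = 0.000283). In FPKM all 3 MuPOX01907 libraries lay above all 3 MuPOX08340 libraries, as for 16.8% of the 8623 genes tested. Of these genes, 10.4% were called higher in MuPOX01907. This is the comparison between the mutants given above and not a further test.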

How the results depend on the processing

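Over 20 alternatives per comparison, POX09352 stayed called lower in MuPOX01907 than in Ku70 (log2 -2.53 to -1.99), as did POX01356 (-4.07 to -3.18) and POX09352 (-3.35 to -2.76) in MuPOX08340 than in Ku70, and POX01356 stayed called higher in MuPOX01907 than in MuPOX08340 (3.46 to 4.07). POX01356 in MuPOX01907 against Ku70 was called in none, and its sign turned to -0.20 with library totals alone, -0.0338 with limma on log2(FPKM + 1) and -0.0333 on log2(FPKM + 0.1), and ranged from -0.22 to 0.66 as libraries were left out. POX09352 between the mutants ranged from 0.74 to 1.12 as libraries were left out. With the replicate block POX09352 gave 0.84 between the mutants (edgeR adjusted p = 0.0402), and the block changed no call of either gene. Genes called in MuPOX08340 against Ku70 numbered 314 with these strains alone, and 281 to 1023 as libraries were left out. The difference between both genes across 3 strains gave an exact permutation p = 0.0556 when libraries were permuted within the replicate block, and p = 0.00714 to 0.0214 as libraries were left out. For each of these the cause was not tested unless the setting itself shows it. With 3 libraries per strain, differences near the spread were not detectable.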
